A study of Mus musculus with 12 samples.

Results

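The genes of active DNA demethylation and of the base excision repair that completes it were followed in mouse germ cells. The set held 9 genes, taken by name from the 26218 gene rows of the deposited table: Tet1, Tet2, Tet3, Tdg, Mbd4, Apex1, Parp1, Xrcc1 and Lig3. All 9 had a row, and 8 passed the filter on low values, which asked for at least 5 RPM (RPM being reads scaled to a fixed library total) in at least 2 of the 12 libraries. Tet3 did not pass, and Tet2 passed only through its 2 female libraries.

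Germ cells were measured by 3′-end RNA sequencing in 6 groups of 2 libraries. Cultured primordial germ cell-like cells (PGCLCs) were made from C57BL/6 embryonic stem cells through epiblast-like cells, carried the Blimp1-mVenus and Stella-ECFP reporters, and were sorted by Blimp1-mVenus at day 4 of induction. They were then expanded on m220 feeder cells and sorted again at culture day 3, 5 or 7 (d4c3, d4c5 and d4c7), and 10 ng of RNA was amplified. Embryonic germ cells were primordial germ cells (PGCs) of embryonic day (E) 9.5, whose sex the labels do not give, and germ cells of E12.5, males and females apart. They came from an ICR and C57BL/6 background in equal parts, carried a Stella-EGFP reporter by which they were sorted, and 1 ng of RNA was amplified. Culture and embryo therefore differed in strain, reporter, sort and RNA input, and a difference between them cannot be told apart from these. Nothing in the labels ties a replicate to its own culture or litter, so a p-value here is set by how far these libraries differ, which may be technical spread alone.

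All 10 germ cell markers, among them Dppa3, Prdm1, Tfap2c and Pou5f1, reached 5 RPM in both libraries of every group. Estimated reads in genes ranged from 2219175 to 5817990 per library. Transcripts of other tissues were present at E9.5. There, 10 blood and endothelium markers summed to 3872 and 4356 RPM, with 169 RPM the highest sum elsewhere, mesoderm markers to 95.7 and 99.7 RPM against at most 5.77 RPM, and hindgut and endoderm markers to 33.5 and 42.2 RPM against at most 9.74 RPM. Fibroblast and feeder markers summed to 681 and 712 RPM at E9.5 and to between 204 and 503 RPM elsewhere, with Fn1 alone at 113 to 417 RPM. Single culture libraries differed within these sums. Col3a1 and Dcn were each at 39.7 RPM in d4c5 replicate 1, against 0.904 and 1.36 RPM in replicate 2. Fn1 went the other way there, at 171 and 397 RPM. In d4c7, Col3a1 was at 9.42 and 1.55 RPM and Dcn at 7.46 and 4.14 RPM. Gonadal somatic markers summed to 13.2 and 24.3 RPM at E9.5, to 10.5 and 16.6 RPM in males, and to between 3.91 and 9.81 RPM elsewhere. Defining markers at 0 in both E9.5 libraries were Cdh5, Apoa4, Tbx1, Amh, Foxl2 and Nr5a1, and at E12.5 Alas2, Cdh5, Kdr, Apoa4, Ttr, Tbx1 and Amh were at 0 in both sexes. Spike-in RNAs summed to 1372 and 628 RPM at E9.5, to between 12107 and 16494 RPM at E12.5, and to between 59.6 and 72.7 RPM in the 5 culture libraries that list them. Replicate 2 of d4c7, the library with 5817990 estimated reads, lists none. The part of other cells and of the spike-in difference in the results was not tested.

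DNA methylation can be lost passively, when replication copies are not remethylated, or actively, through enzymes that alter the methylated base. The Tet proteins oxidise 5-methylcytosine to 5-hydroxymethylcytosine and on to 5-formylcytosine and 5-carboxylcytosine. Tdg, thymine DNA glycosylase, cuts out the formyl and carboxyl forms, and Mbd4 is a glycosylase that removes thymine from mismatches at methylated sites. The site that is left is cut by Apex1, the break is sensed by Parp1, and Xrcc1 is the scaffold that brings DNA ligase 3 (Lig3) to seal it. Mouse PGCs lose nearly all DNA methylation between migration and arrival in the gonad, and Tet1 and Tet2 are known as the Tet enzymes of these cells.

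The 3 Tet genes and Tdg act first in the pathway, and the 250 bases before their annotated starts are shown (RefSeq, GRCm38.p6, the build of mm10, read 5′ to 3′ on the strand of the gene). Capitals mark CpG dinucleotides, the sites that DNA methylation uses. A single start per gene is listed there, and the windows reach into the annotated span of all 4 genes, which begins at the most upstream start. The windows are chr10:62887325-62887574 on the minus strand for Tet1, chr3:133544391-133544640 on the minus strand for Tet2, chr6:83441679-83441928 on the minus strand for Tet3 and chr10:82629588-82629837 on the plus strand for Tdg.
Tet1: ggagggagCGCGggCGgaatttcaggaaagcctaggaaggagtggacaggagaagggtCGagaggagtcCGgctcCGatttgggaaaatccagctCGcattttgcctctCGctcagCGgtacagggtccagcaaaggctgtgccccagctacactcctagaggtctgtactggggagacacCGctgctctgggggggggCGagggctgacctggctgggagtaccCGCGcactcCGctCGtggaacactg
Tet2: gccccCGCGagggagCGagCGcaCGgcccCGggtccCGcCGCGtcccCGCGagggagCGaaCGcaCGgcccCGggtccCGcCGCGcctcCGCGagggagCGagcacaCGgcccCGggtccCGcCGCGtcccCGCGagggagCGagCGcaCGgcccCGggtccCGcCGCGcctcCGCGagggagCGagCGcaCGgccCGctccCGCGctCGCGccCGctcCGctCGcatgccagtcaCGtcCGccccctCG
Tet3: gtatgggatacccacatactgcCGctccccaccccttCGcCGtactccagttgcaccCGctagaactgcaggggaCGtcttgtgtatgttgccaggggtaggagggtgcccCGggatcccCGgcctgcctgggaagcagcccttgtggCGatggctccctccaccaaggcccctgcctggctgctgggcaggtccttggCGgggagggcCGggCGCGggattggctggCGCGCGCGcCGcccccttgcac
Tdg: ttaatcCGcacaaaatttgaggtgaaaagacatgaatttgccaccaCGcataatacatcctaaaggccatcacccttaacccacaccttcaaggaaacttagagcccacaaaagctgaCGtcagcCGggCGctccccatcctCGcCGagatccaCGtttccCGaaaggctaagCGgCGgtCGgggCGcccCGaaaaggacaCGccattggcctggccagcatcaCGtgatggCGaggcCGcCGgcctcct
The Tet2 window held 51 CpGs, more than 99.9% of the 32851 promoters in the same table, whose median was 6. The windows of Tet1, Tet3 and Tdg held 15, 17 and 19, more than 72.7%, 76.5% and 80.3% of promoters. Among the other members the counts were 28 for Apex1, 22 for Mbd4, 16 for Parp1, 12 for Lig3 and 5 for Xrcc1. A pair of palindromes was searched, read alike on both strands, after the windows had been read: the E-box CACGTG and the cAMP response element TGACGTCA, which do not overlap each other here. The E-box occurred once each in the windows of Tdg, Apex1, Parp1 and Lig3, beginning 28, 24, 49 and 21 bases before the start, and in 6.02% of all promoters. The second occurred in the Tdg window alone among the 9, beginning 135 bases before the start, and in 1.55% of all promoters. A match describes the letters and was not tested as a binding site.

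The gene bodies lie on chromosome 10 for Tet1 (62804570 to 62887469) and Tdg (82629814 to 82650799), chromosome 3 for Tet2 (133463677 to 133545136) and chromosome 6 for Tet3 (83362373 to 83457208) and Mbd4 (115840697 to 115853400). Apex1 lies on chromosome 14 (50924949 to 50927188), Parp1 on chromosome 1 (180568891 to 180600999), Xrcc1 on chromosome 7 (24546699 to 24573438) and Lig3 on chromosome 11 (82781109 to 82804274). Whether reads were counted by strand is not given in the sources used here. Rffl, which overlaps Lig3 on the other strand, was at 96.3 to 225 RPM over the libraries, and Tmem55b, which overlaps Apex1, was at 400.5 to 496 RPM, so values of Lig3 and Apex1 may share reads with them. Rffl was lowest at E9.5 and highest in males, an order that Lig3 did not follow, and the part of shared reads in Lig3 was not tested. Glt8d2, which overlaps Tdg, was at most at 2.19 RPM. Tdg has processed copies in the mouse genome, and its values were not whole numbers of reads in most libraries, so they are uncertain where reads were shared with a copy. The copy with a row, Gm5806, was at most at 1.23 RPM. Levels are compared here within a gene and never between genes, since RPM is not scaled for how well each 3′ end is captured.

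Tet1, the Tet enzyme with a DNA-binding CXXC domain that is abundant in pluripotent cells, was lowest in E9.5 PGCs. Its level was 49.3 and 51.7 RPM at E9.5, 126 and 128 RPM in E12.5 males, and 79.4 and 80.6 RPM in E12.5 females. The 3 embryonic groups did not overlap, and the 2 libraries of each lay close together. In culture Tet1 was at 152 and 127 RPM in d4c3, 108 and 163 RPM in d4c5, and 101 and 168 RPM in d4c7. All 6 culture libraries were above the E9.5 and the female libraries, while the 3 culture groups overlapped each other and the males. In these bulk samples, fewer cells that hold a transcript cannot be told apart from less of it per cell. By group mean the order ran from d4c3 (139.9 ± 17.8 RPM, SD, n = 2 for every group) through d4c5, d4c7 and males (127 ± 1.72 RPM) to females (80.0 ± 0.821 RPM) and E9.5 (50.5 ± 1.69 RPM), and the first 4 did not differ beyond their spread.

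Tet2, which lacks a CXXC domain of its own, was low outside females. It was at 10.0 and 6.03 RPM in E12.5 females and at 1.56 and 0.903 RPM in E12.5 males. These correspond to an estimated 33.0 and 24.0 reads in females and 5.0 and 3.0 reads in males, so the male level is at about the 3 reads that a value of 0 allows. At E9.5 Tet2 was at 3.68 and 4.02 RPM. In culture it was at 1.17 and 2.22 RPM in d4c3, 1.95 and 3.20 RPM in d4c5, and 3.93 and 4.48 RPM in d4c7. Both d4c7 libraries were above both d4c3 libraries. The d4c3 levels rest on an estimated 3.0 and 5.0 reads, at or near the 3 reads that a value of 0 allows. Since the female libraries alone brought Tet2 past the filter, its tests against other groups started from a gene that was high in females.

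Tet3, the Tet enzyme of the oocyte and zygote, was seen mainly at E9.5. It was at 5.88 and 3.77 RPM there, an estimated 16.0 reads in each library, and at most at 0.785 RPM, or 2.0 reads, in any of the other 10 libraries. Both d4c3 libraries and both male libraries list it at 0, where a value of 0 allows up to 1.17 and 1.33 RPM in d4c3 and up to 0.938 and 0.903 RPM in males, counting error only. The E9.5 libraries, where Tet3 was highest, also held the markers of blood, mesoderm and endoderm given above. Whether Tet3 there comes from germ cells or other cells was not tested.

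Tdg, the glycosylase of the oxidised bases, was highest at E9.5 and lowest at E12.5. It was at 131 and 137 RPM at E9.5, at 39.9 and 34.5 RPM in males, and at 42.0 and 46.8 RPM in females. All 4 libraries of E12.5 were below all others. The culture groups lay between. Their libraries read 115 and 105 RPM (d4c3), 89.4 and 112 RPM (d4c5), and 93.8 and 97.6 RPM (d4c7). They stood apart from both embryonic stages, and d4c5 overlapped the other culture groups, while both d4c3 libraries were above both d4c7 libraries. The second glycosylase gene, Mbd4, ranged from 5.10 to 15.0 RPM over all 12 libraries, and its groups overlapped except that both d4c3 libraries were above both female libraries.

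**Figure D1:**
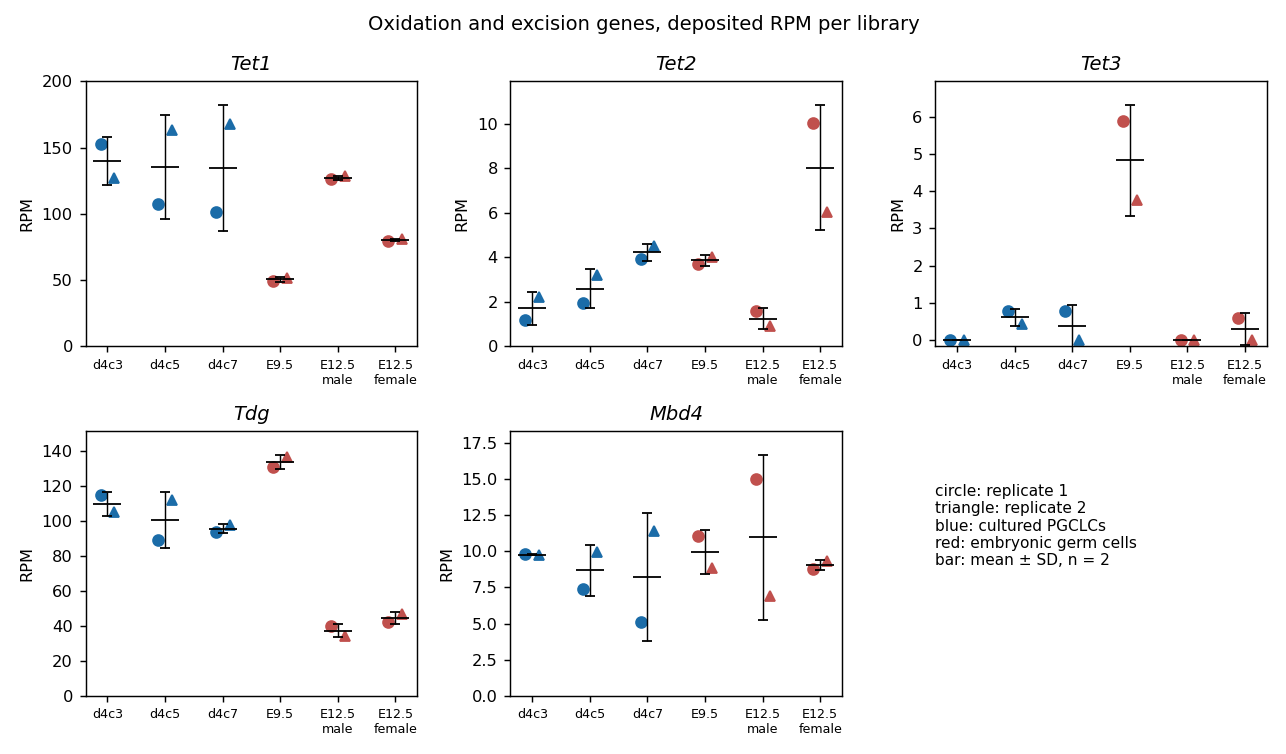
Deposited RPM (vertical axes) of Tet1, Tet2, Tet3, Tdg and Mbd4 in each library, by group (horizontal axes). Circles are replicate 1 and triangles replicate 2, blue is culture and red is embryo, and bars are the mean ± SD of 2 libraries. Tet1 is lowest and Tdg highest at E9.5, and the E12.5 libraries of Tdg, at 34.5 to 46.8 RPM, lie below all others.

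Among the repair genes, Parp1, whose product binds DNA breaks and builds poly(ADP-ribose) there, separated culture from embryo. It was at 610.2 and 596 RPM in d4c3, 564 and 526 RPM in d4c5, and 521 and 496 RPM in d4c7. In the embryo it was at 703 and 707 RPM at E9.5, 808 RPM in each male library, and 897 and 891 RPM in females. No 2 groups overlapped, here as for Lig3 below, and the share of all genes with such a pattern was not counted.

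Lig3, the ligase that seals the repaired strand, was higher in every culture library than in every embryonic library, again with no overlap between groups. The difference between d4c7 and E9.5 was small and did not pass the test given below. It was at 38.3 and 40.4 RPM in d4c3, 31.2 and 33.4 RPM in d4c5, and 29.5 and 30.9 RPM in d4c7. The embryonic libraries read 27.6 and 27.8 RPM (E9.5), 19.4 and 21.4 RPM (males), and 16.4 and 17.9 RPM (females). Over the 12 libraries Lig3 followed Tdg at Pearson r = 0.826, which is a description over libraries that share their groups.

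Xrcc1, the scaffold of the repair complex, was at 86.8 and 96.5 RPM at E9.5, above the other 10 libraries, which lay between 49.5 and 76.7 RPM. Among those 5 groups all overlapped except that both male libraries were above both d4c3 libraries. Apex1, the endonuclease that cuts the abasic site, lay between 30.2 and 39.7 RPM in the embryo. In culture it was at 27.0 and 35.5 RPM in d4c3, 19.1 and 29.8 RPM in d4c5, and 22.0 and 39.3 RPM in d4c7. Its culture libraries were more spread than its embryonic ones.

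**Figure D2:**
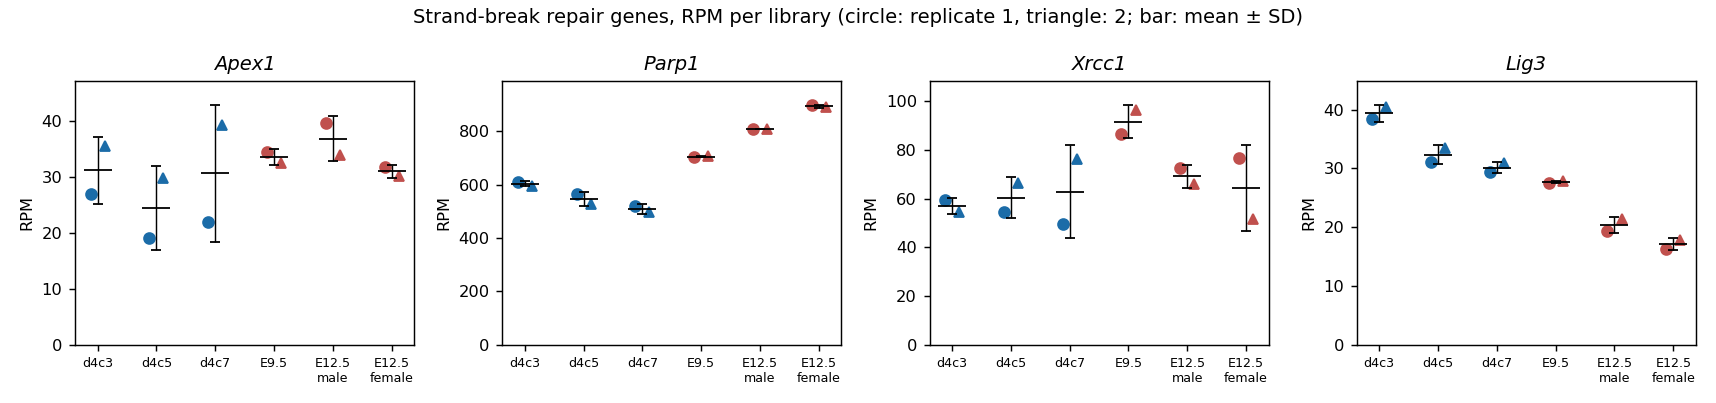
RPM (vertical axes) of Apex1, Parp1, Xrcc1 and Lig3 in each library, by group (horizontal axes), with culture in blue, embryo in red and bars for the mean ± SD of 2 libraries. Parp1 runs from 496 RPM in d4c7 to 897 RPM in females, and Lig3 from 16.4 RPM in females to 40.4 RPM in d4c3.

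The first comparisons asked how the set changes in the embryo between migrating PGCs and gonadal germ cells. The E9.5 libraries are those with the markers of other tissues given above. All tests are limma fits of log2(RPM + 1) over all 10856 genes tested, with Benjamini-Hochberg adjusted p under 0.05 as the call, and each log2 change is given with its standard error (SE). In males Tet1 rose by 1.32 ± 0.21 (adjusted p = 0.000328), while Tdg fell by 1.82 ± 0.15 (adjusted p = 8.02e-07) and Tet2 fell by 1.13 ± 0.38 (adjusted p = 0.0289). Of 8 members tested, 1 was therefore higher and 2 were lower, against a background of 20.0% of all genes called higher and 17.6% called lower. The members' median change was -0.17 on the log2 scale, against 0.05 over all genes tested. Lig3 and Parp1 did not pass, with -0.43 ± 0.18 and 0.20 ± 0.08 and adjusted p = 0.0821 for both, nor did Xrcc1 at -0.40 ± 0.21 (adjusted p = 0.157). The Tet2 call was lost without a filter (adjusted p = 0.0612) and without E9.5 replicate 1 (0.0898), E9.5 replicate 2 (0.120) or male replicate 2 (0.162).

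In females Tet1 rose by 0.65 ± 0.21 (adjusted p = 0.0278) and Parp1 by 0.34 ± 0.08 (adjusted p = 0.00599), while Tdg fell by 1.57 ± 0.15 (adjusted p = 4.29e-06) and Lig3 by 0.67 ± 0.18 (adjusted p = 0.0115). That made 2 of 8 higher and 2 lower, against 20.4% of all genes higher and 17.1% lower, with a member median of -0.11 and a median of 0.04 over all genes. Tet2 did not pass at 0.86 ± 0.38 (adjusted p = 0.0868) but did with a pseudocount of 5 RPM (0.0365). Xrcc1 did not pass at -0.53 ± 0.21 (adjusted p = 0.0640) but did without female replicate 1 (-0.81, 0.0269). The male and female comparisons share the E9.5 libraries. The Tet1 call in females was lost when any of the 4 libraries was left out (adjusted p from 0.0995 to 0.139), and the Lig3 call without E9.5 replicate 1 (0.0564), E9.5 replicate 2 (0.0611) or female replicate 1 (0.0665). Tdg passed in both sexes with every library left out in turn, at an adjusted p of at most 0.000385, and Tet1 in males at an adjusted p of at most 0.00825.

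Tet3 was not tested in these fits. In a limma fit without a filter, its changes from E9.5 were -2.52 ± 0.33 in males (adjusted p = 0.000958) and -2.18 ± 0.33 in females (adjusted p = 0.00206) on the log2(RPM + 1) scale. Those fitted changes rest on values at or near 0 at E12.5 and depend on the pseudocount. From E9.5 to d4c7 the same fit gave -2.10 ± 0.33 (adjusted p = 0.00253).

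Female and male germ cells of E12.5 were then compared with each other, which is also the test of whether the change from E9.5 differs between the sexes. Tet2, with a difference of 1.99 ± 0.38 in favour of females, was the single member past the threshold among 8, but it entered the test only through its female libraries, so this describes the levels above and is no test of them. Over all genes 6.68% were called higher in females and 5.27% lower. Tet1 was lower in both female libraries than in both male libraries, a difference of -0.66 ± 0.21 that did not pass (adjusted p = 0.0605; 95% interval -1.12 to -0.20). It passed with libraries rescaled to a median log ratio of 0 (adjusted p = 0.0423) and in a fit of these 4 libraries alone (adjusted p = 0.00878). Tdg differed by 0.25 ± 0.15 and Parp1 by 0.15 ± 0.08, and neither passed (adjusted p = 0.302 and 0.301). Without female replicate 1 the difference of Tet2 was 1.67 ± 0.45 and was not past the threshold (adjusted p = 0.0536).

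**Figure D3:**
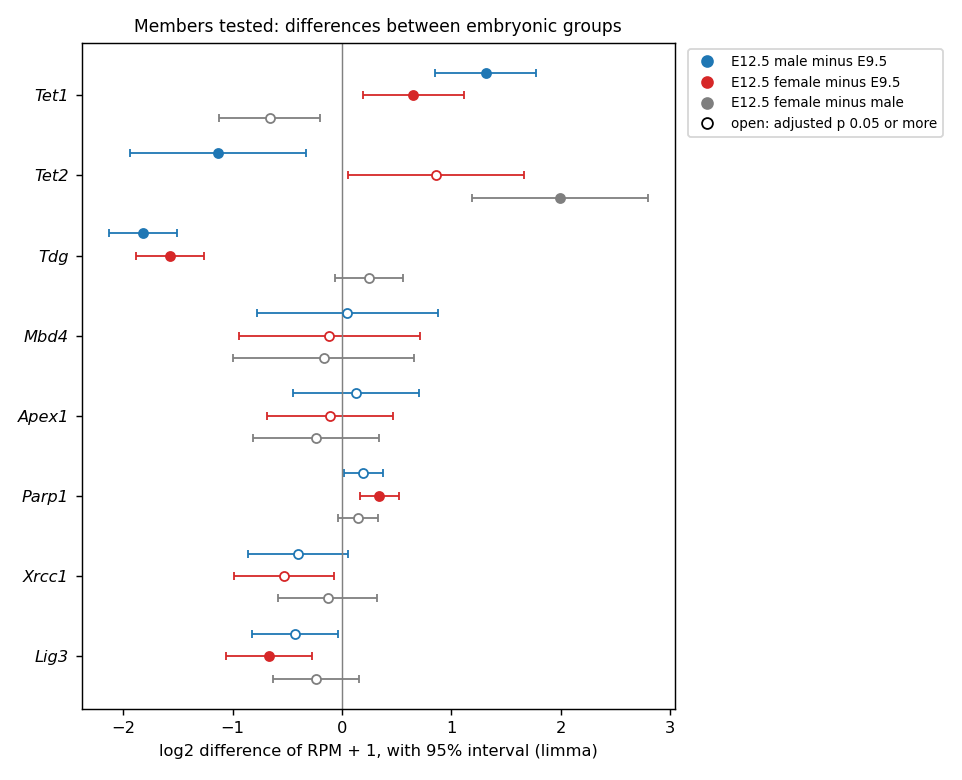
Log2 differences of RPM + 1 (horizontal axis) for the 8 members tested (vertical axis), with 95% intervals from limma, for males against E9.5, females against E9.5 and females against males. Filled points passed an adjusted p of 0.05. Tdg lies at -1.82 and -1.57 against E9.5. Tet2, which passed the filter only through its female libraries, lies at 1.99 between the sexes, which is no test of that difference.

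The culture comparisons asked whether the set changes while PGCLCs expand. No member was called between d4c3 and d4c7 by limma, where 1.67% of all genes were called higher and 1.08% lower. At an unadjusted p under 0.05 there were 2, Parp1 at -0.25 ± 0.08 (adjusted p = 0.153) and Tet2 at 0.97 ± 0.38 (adjusted p = 0.206). Tet2 in d4c3 was at or near the 3 reads that a value of 0 allows. Of all 10856 genes tested, 1797 were under that unadjusted p. The libraries of d4c3 and d4c7 did not overlap in Parp1 and Tet2, nor in Tdg and Lig3. How many of all genes show the same was not counted, so this describes the values only. Tet1 differed by -0.09 ± 0.21 (95% interval -0.55 to 0.37), Tdg by -0.20 ± 0.15 and Lig3 by -0.37 ± 0.18. From d4c3 to d4c5 no member was called either, and none had an unadjusted p under 0.05, where 967 of all genes tested did. Over all genes 0.0645% were higher and 0.0184% lower at that step. The member medians were -0.15 for d4c7 and -0.14 for d4c5 against d4c3, beside 0.02 and 0.01 over all genes.

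Cultured cells of d4c7 were finally set against each embryonic group, with strain, reporter, sort and RNA input confounded. Against E9.5, Tet1 was higher by 1.35 ± 0.21 (adjusted p = 0.000289), and Parp1 and Tdg were lower, with log2 differences of -0.47 ± 0.08 (adjusted p = 0.000686) and -0.48 ± 0.15 (adjusted p = 0.0211). Of all genes 18.1% were called higher and 13.8% lower in that comparison. Lig3 differed by 0.12 and did not pass (adjusted p = 0.661). The Tdg call was lost without d4c7 replicate 1 (adjusted p = 0.0711), E9.5 replicate 1 (0.0810) or E9.5 replicate 2 (0.120). Xrcc1 was at -0.57 ± 0.21 and did not pass (adjusted p = 0.0561), and it ranged from -0.87 without d4c7 replicate 2, where it passed (0.00419), to -0.26 without d4c7 replicate 1 (0.418). The log2 difference of Tet1 ranged from 0.99 without d4c7 replicate 2 to 1.72 without d4c7 replicate 1, a difference that passed with each library left out.

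Against E12.5 males, Tdg was higher by 1.34 ± 0.15 (adjusted p = 1.32e-05), Tet2 by 1.23 ± 0.38 (adjusted p = 0.0198) and Lig3 by 0.54 ± 0.18 (adjusted p = 0.0318), and Parp1 was lower, at -0.67 ± 0.08 (adjusted p = 5.02e-05). Of all genes 19.0% were called higher and 17.6% lower. Tet1 differed by 0.04 ± 0.21 from males (95% interval -0.42 to 0.50). Against females, Tdg was higher by 1.09 ± 0.15 (adjusted p = 7.47e-05), Lig3 by 0.78 ± 0.18 (adjusted p = 0.00428) and Tet1 by 0.70 ± 0.21 (adjusted p = 0.0197), and Parp1 was lower, at -0.81 ± 0.08 (adjusted p = 1.05e-05), where 19.8% of all genes were higher and 19.0% lower. The members' medians were -0.25 against E9.5, -0.07 against males and -0.05 against females, beside 0.04, -0.01 and -0.01 over all genes tested. These comparisons share the d4c7 libraries. Tet2 against males was lost without d4c7 replicate 1 (adjusted p = 0.0536), d4c7 replicate 2 (0.0667) or male replicate 2 (0.125), and Lig3 against males with any 1 of the 4 libraries left out (adjusted p from 0.0681 to 0.141). Tet1 against females was at 0.33 ± 0.19 without d4c7 replicate 2 (adjusted p = 0.183), and it was also lost without female replicate 1 (0.0892) or replicate 2 (0.0795). Mbd4, Apex1 and Xrcc1 were called in none of the 8 comparisons, with lowest adjusted p of 0.473, 0.390 and 0.0561. The calls of Tdg against males and females and of Parp1 against all 3 embryonic groups held with every library left out.

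**Figure D4:**
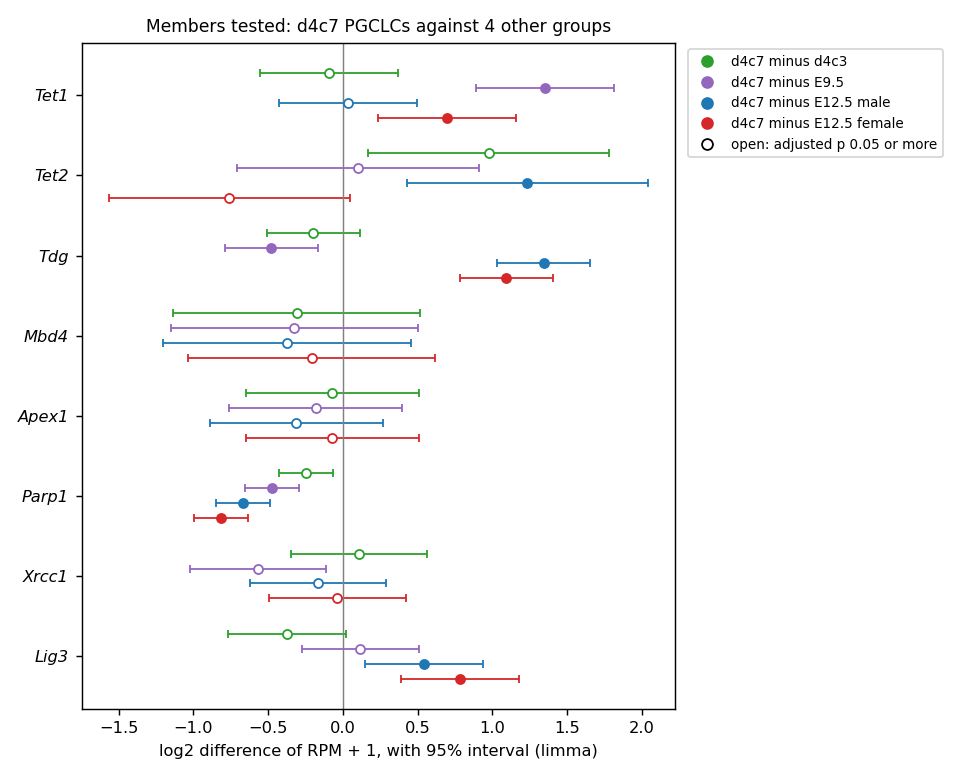
Log2 differences of RPM + 1 (horizontal axis) of d4c7 PGCLCs from d4c3, E9.5, E12.5 males and E12.5 females for the 8 members tested (vertical axis), with 95% intervals from limma. Filled points passed an adjusted p of 0.05. Parp1 is below 0 in all 4 comparisons and passes in the 3 against the embryo, from -0.47 to -0.81, while Tdg changes side between E9.5 and E12.5.

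The rest of the pathway was read from lists of genes. Of 16 other base-removing enzymes, deaminases and Gadd45 genes, 12 were tested, and the Gadd45 stress genes and Apobec2 made up the embryonic changes. In males Gadd45a was lower than at E9.5, a log2 change of -2.87 ± 0.23 with group means of 8.93 ± 2.84 RPM against 70.3 ± 2.98 RPM, and Apobec2, of the cytidine deaminase family, was higher by 3.17 ± 0.47. In females Gadd45a fell by 1.14 ± 0.23 and Gadd45b rose by 1.86 ± 0.34. Between the sexes Gadd45a was higher in females by 1.73 ± 0.23, at 31.9 ± 8.09 RPM there. These 5 calls held with each of their libraries left out. In females the call of Apobec2 (1.28 ± 0.47) against E9.5 was lost with any 1 of the 4 libraries left out (adjusted p from 0.0839 to 0.258), with a pseudocount of 5 RPM (0.105), without a filter (0.129) and with rescaled libraries (0.0537). Between the sexes Gadd45b (1.35 ± 0.34) and Apobec2 (-1.88 ± 0.47) were likewise lost with any 1 of the 4 libraries left out, at 0.0735 to 0.118 and 0.0528 to 0.164. Gadd45g passed the filter only through E9.5, where it read 6.99 and 7.31 RPM, so its tests against E9.5 describe that choice. It read 0 and 0.903 RPM in males, at or below 3 reads, and 2.73 and 2.26 RPM in females. In all, 1 of the 12 was called higher and 2 lower in males against E9.5, 2 and 2 in females, and 3 and 1 in females against males, Gadd45g among them, beside the shares of all genes given above for these comparisons (20.0% and 17.6%, 20.4% and 17.1%, and 6.68% and 5.27%). Against d4c3, 0 of the 12 passed in d4c7, and d4c7 was higher in 3 and lower in 2 against E9.5, 2 and 1 against males, and 2 and 2 against females, where 18.1% and 13.8%, 19.0% and 17.6%, and 19.8% and 19.0% of all genes were. Apobec3, a deaminase of antiviral defence, passed the filter through d4c7 (10.2 and 7.76 RPM) and d4c5 replicate 1, and its levels in males were 0 and 0.903 RPM, at or below 3 reads. Gadd45g is among the genes called lower than at E9.5 in males, females and d4c7. Apobec3 is among those called higher in d4c7 against each embryonic group. Both passed the filter through groups where they were high, so the counts that hold these calls describe that choice and are no tests. The glycosylase genes Ung, Smug1, Mutyh, Nthl1, Neil1, Neil3 and Mpg were not called in any embryonic comparison.

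Among 15 other genes of single-strand break repair, 14 were tested. Tdp2, which clears stalled topoisomerase from DNA ends, rose from E9.5 by 0.57 ± 0.12 in males and 0.68 ± 0.12 in females. Parp2, a second break sensor, fell by 0.67 ± 0.16 in males and by 0.84 ± 0.16 in females. Of these 4 calls, that of Parp2 in males was lost without male replicate 1 (adjusted p = 0.0550). Other calls in males rested on single libraries. Apex2 at 0.80 ± 0.27 was lost without E9.5 replicate 2 (0.279) or either male replicate (0.0783 and 0.160), and Aptx at -0.80 ± 0.30 without either E9.5 replicate (0.173 and 0.157) or male replicate 2 (0.296). The sexes differed in 0 of 14 by limma, and 0 were called in culture between d4c3 and d4c7. The culture count depended on d4c7 replicate 2, as did the number called over all genes. At an unadjusted p under 0.05 there were 0 of the 14 between the sexes and 4 in culture. Of all 10856 genes tested, 2819 and 1797 were.

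Against the embryo, d4c7 was lower in 5 of these 14 at E9.5, 10 in males and 7 in females, and higher in 0, where 13.8%, 17.6% and 19.0% of all genes were lower and 18.1%, 19.0% and 19.8% higher. The median difference was -0.50 from E9.5, -0.83 from males and -0.68 from females, beside medians of 0.04, -0.01 and -0.01 over all genes tested. Hmgb1, a DNA-bending chromatin protein, was lower in all 3 comparisons (-0.68, -0.86 and -0.78, each ± 0.11), at 356 ± 32.6 RPM in d4c7. Its embryonic means were 572 ± 54.4 RPM (E9.5), 647 ± 8.49 RPM (males) and 611 ± 30.6 RPM (females). Apex2, a relative of Apex1, was lower than in males (-1.19 ± 0.27) and Parp2 lower than at E9.5 (-0.66 ± 0.16), and both held with each library left out. Polb, the gap-filling polymerase, was lower than in males (-1.38 ± 0.50) and than in females (-1.61 ± 0.50), with 6.28 and 29.8 RPM in the d4c7 libraries. Poll, a related polymerase, was lower than at E9.5 (-1.60 ± 0.49) and than in males (-1.65 ± 0.49). Lig1, the replicative ligase, was lower than in females (-1.22 ± 0.30), with 79.3 and 170.5 RPM in the d4c7 libraries. Calls of Polb and Poll were lost without d4c7 replicate 1 (adjusted p from 0.232 to 0.513) or without either replicate of the embryonic group (0.0629 to 0.147), and that of Lig1 without d4c7 replicate 1 (0.0503). Replicate 1 of d4c7 was the lower one for Polb, Poll and Lig1, as for Tet1, Mbd4, Apex1 and Xrcc1, and replicate 2 was estimated at 5817990 reads against 2552984. The counts depended on single libraries. Without d4c7 replicate 1 they were 3, 5 and 3, with 1 gene higher against females, and without d4c7 replicate 2 they were 9 in each comparison. They were 2 without either E9.5 replicate, 6 and 4 without male replicates 1 and 2, and 4 and 5 without female replicates 1 and 2. Without a filter they were 3, 6 and 4, and in fits of the 4 libraries compared 3, 4 and 3. Over all genes the fits of 4 libraries called 1091, 1048 and 1171 lower, beside 1498, 1910 and 2067 in the reported fit. The fits without a filter called 1959, 1690 and 1902 of 19998 lower.

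**Figure D5:**
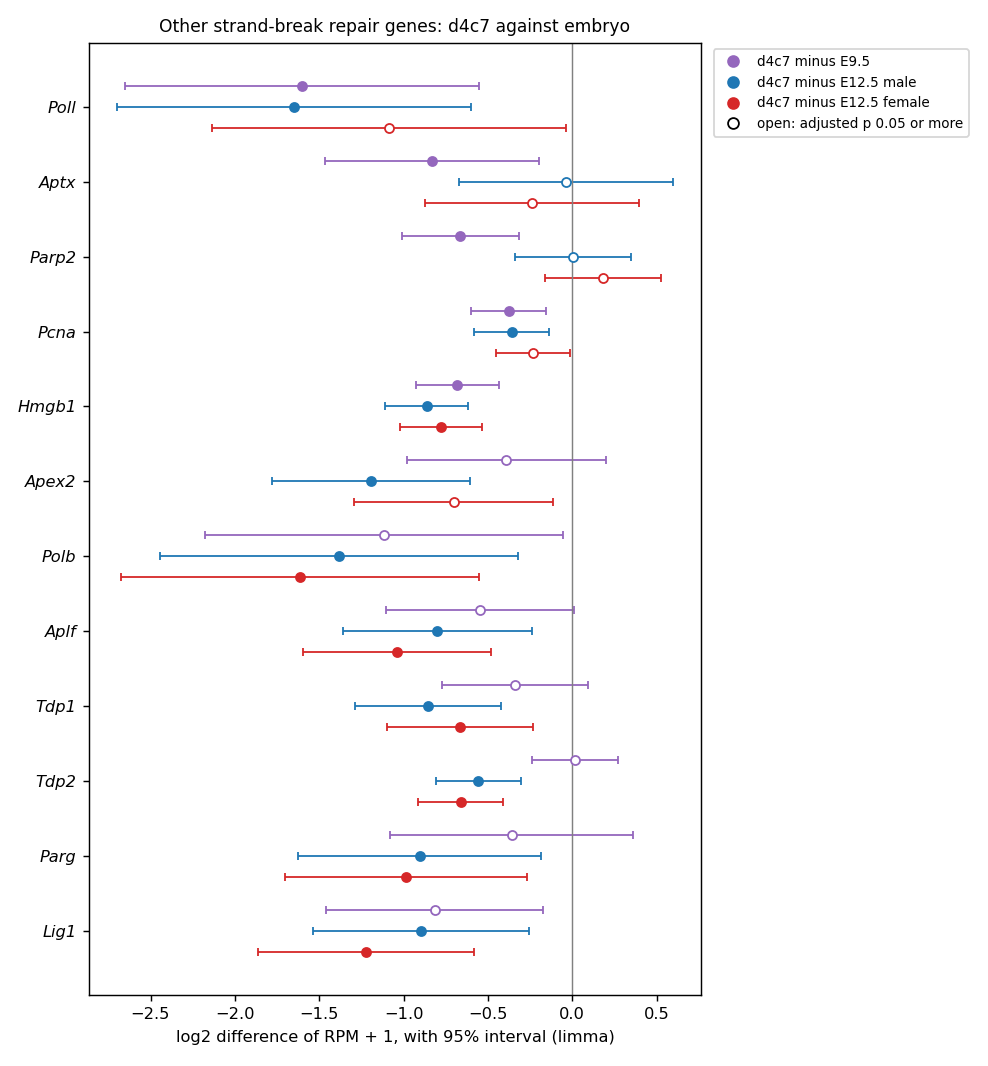
Log2 differences of RPM + 1 (horizontal axis) of d4c7 PGCLCs from E9.5, E12.5 males and E12.5 females for the 12 of 14 other strand-break repair genes that passed in at least 1 of these comparisons (vertical axis), with 95% intervals from limma and filled points for an adjusted p under 0.05. All filled points lie below 0, and Hmgb1 is filled in all 3 comparisons.

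Genes of Tet cofactors and partners were tested in 7 of 10 cases. They include Ogt, which binds Tet proteins, and the Idh genes, whose enzymes make the 2-oxoglutarate that Tet proteins consume. Idh2 fell from E9.5 to males by 0.74 ± 0.15 and was higher in females than in males by 0.93 ± 0.15. In d4c7 it was higher than in all 3 embryonic groups, at 219 ± 48.0 RPM. Its embryonic means were 124 ± 6.67 RPM (E9.5), 73.8 ± 0.00856 RPM (males) and 141 ± 7.58 RPM (females). Ogt was not called in any of the 8 comparisons. The Idh2 calls held with each library left out, but against females the difference of 0.61 ± 0.15 was 0.39 without d4c7 replicate 1 and the call was lost in a fit of the 4 libraries compared (adjusted p = 0.0540). Slc23a2, a vitamin C transporter, was higher in males than at E9.5 by 0.61 ± 0.17, a call lost with any 1 of the 4 libraries left out (adjusted p from 0.0557 to 0.0724).

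Genes of replication were read beside these because passive loss needs replication. Of 10 replication licensing and helicase genes, 2 rose and 2 fell from E9.5 to males and 4 rose and 1 fell to females, beside 20.0% and 17.6% of all genes in males and 20.4% and 17.1% in females. Rpa2, of the single-strand binding protein, rose by 1.19 ± 0.12 and 1.37 ± 0.12, and Mcm2, of the replicative helicase, by 0.77 ± 0.09 and 0.47 ± 0.09. These 4 calls held with each library left out. The number that fell was 0 without E9.5 replicate 1 or male replicate 2 and 1 without the others in males, and 0 in females with any 1 library left out, and the number that rose in females was 2 without either E9.5 replicate or female replicate 2. Rpa2 was also the 1 gene of these 4 lists called between d4c7 and d4c3, at 0.68 ± 0.12, a call lost without d4c3 replicate 1 (0.0838) or replicate 2 (0.0701), without a filter (0.0585) and in a fit of these 4 libraries (0.257).

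Genes with the most similar pattern over the 12 libraries were looked up among 4131 or 4132 tested genes with a group mean of at least 50 RPM. For Tet1 they were Etnk1 (Pearson r = 0.949), Akap12 (0.944) and Dact1 (0.932). Those for Tdg were Rps27 (0.987), Anp32e (0.973) and Mrpl33 (0.970). Tet3 had Romo1 (0.943), Hmga2 (0.929) and Slc16a3 (0.917), and Tet2 had Tnfrsf19 (0.825), Crot (0.816) and Rpl36a (0.813). The libraries share groups, so these correlations describe group patterns. The group means of Rps27, a ribosomal protein gene, were 1492 RPM (E9.5), 452 RPM (males) and 493 RPM (females). Tet1 and Tet3 ran against each other (r = -0.830), which rests on the 2 E9.5 libraries for Tet3.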

How the data were processed

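The deposited table gives RPM, read numbers scaled by the authors to reads in genes, for 26218 gene rows and 92 ERCC spike-in rows in 12 libraries, 2 per group. Per the submitters' processing notes, cutadapt 1.3, TopHat 1.4.1, Cufflinks 2.2.0 and mm10 were used, with no role stated. The smallest common step of each library was taken as 1 read. Between 81.7% and 87.3% of values up to 20 reads were whole within 0.1 read, so whole reads were not recovered and count tests were not used. A value of 0 allows up to 3 reads (0.517 to 1.36 RPM), counting error only.

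Genes with at least 5 RPM in at least 2 libraries were kept (10856 kept, 15362 left out). One limma 3.58.1 model in R 4.3.3 (mean per group, mean-variance trend, 6 residual and 8.02 prior degrees of freedom) was fitted to log2(RPM + 1) of all 12 libraries. The pseudocount of 1 RPM understates changes of low genes. The model was tested on simulated data. The 9 members, the gene lists, the tests and the alternatives were chosen with earlier results of these data known. Named genes are the 9 members, up to 4 called genes per pathway list and comparison with the largest change, and the 3 genes most like Tet1, Tet2, Tet3 and Tdg; not all are described, and Ung, Ogt and the other glycosylase genes, and Hmgb1 against males and females, were named after their values were seen. Hmces had no row under that name. Some genes of the lists are counted but not reported here by name. Positions and promoters are from RefSeq GRCm38.p6 and overlaps from GENCODE M21. Alternatives were a pseudocount of 5 RPM, no filter, rescaling to a median log ratio of 0, the 4 libraries compared alone, a replicate block, and each library left out.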

Additional observations from a re-analysis of the deposited data

Results flagged for a closer look

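The log2 change of Tet2 from E9.5 to E12.5 was larger in females than in males by 1.99, with 10.0 and 6.03 RPM in females and 1.56 and 0.903 RPM in males, and it stood out as a difference between the sexes. Tet2 passed the filter only through its female libraries, so the difference is a description, and the limma result given above is no test of it. Without female replicate 1 it was 1.67.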

How the results depend on the processing

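With 2 libraries per group and 6 residual and 8.02 prior degrees of freedom, small changes of genes with a wide spread could not be called. Parp1, with a narrow spread, was called in females against E9.5 at a log2 change of 0.34. Of 19 calls of members, 11 held with each of their libraries left out, among them every call of Parp1 and all calls of Tdg except that against E9.5 in d4c7. Tet2 between the sexes is counted in the 19, not in the 11, and in each count of 1 or 2 between the sexes below. It passed the filter only through its female libraries, so these counts are no test of it. With single libraries left out, the number of members called ranged from 2 to 3 for males against E9.5 (3 in full), 2 to 3 for females against E9.5 (4), 0 to 1 between the sexes (1), 2 to 4 for d4c7 against E9.5 (3), 2 to 3 against males (4) and 3 to 4 against females (4), and stayed at 0 within culture. A fit of the 4 libraries compared called 5 members for males against E9.5, 2 between the sexes, 2 for d4c7 against males and 2 for d4c7 against females. Over all genes it called 5338, 1292, 2297 and 2456 in these comparisons, beside 4089, 1297, 3968 and 4221 as reported. Lig3 in d4c7 was lost in that fit against males (adjusted p = 0.134) and females (0.0572). Parp1 and Xrcc1 passed in it for males against E9.5 (0.00879 and 0.0108) and Xrcc1 for females against E9.5 (0.0160). Rescaled libraries and the replicate block each called 2 between the sexes, through Tet1 (0.0423 and 0.0390), and Lig3 passed for males against E9.5 with rescaled libraries (0.0454) and without a filter (0.0344). With rescaled libraries Xrcc1 passed against E9.5 in females (0.0300) and d4c7 (0.0255). Same-numbered libraries correlated at -0.043 to 0.455 over 15 pairs of groups, 3 above 0.1, namely those among the culture groups (0.116, 0.131 and 0.455). With 2 libraries per group the numbers are not taken as pairs, and the block changed no other member count, with 0 called within culture. Without a filter Tet1 lost its calls in females against E9.5 (0.0905) and d4c7 against females (0.0792), and Tet2 in d4c7 against males (0.0524). Against E9.5, rescaling gave 1865 genes higher and 2161 lower in males (2176 and 1913 as reported), 1966 and 2106 in females (2216 and 1853), and 1729 and 1782 in d4c7 (1965 and 1498). Signs turned only for members that were not called. Mbd4 in males against E9.5 was at -0.016 with rescaled libraries. With single libraries left out, log2 changes ranged, for d4c7 against d4c3, from -0.46 to 0.27 for Tet1, -0.48 to 0.33 for Apex1, -0.82 to 0.20 for Mbd4 and -0.20 to 0.42 for Xrcc1. For d4c5 against d4c3 they ranged from -0.37 to 0.23 for Tet1, -0.29 to 0.030 for Tdg, -0.36 to 0.023 for Mbd4 and -0.061 to 0.22 for Xrcc1. For males against E9.5 they ranged from -0.46 to 0.56 for Mbd4. For females against E9.5 they ranged from -0.26 to 0.029 for Mbd4. For females against males they ranged from -0.67 to 0.34 for Mbd4 and -0.41 to 0.15 for Xrcc1. For d4c7 against E9.5 they ranged from -0.83 to 0.19 for Mbd4 and -0.59 to 0.22 for Apex1. For d4c7 against males they ranged from -0.88 to 0.14 for Mbd4, -0.72 to 0.094 for Apex1, -0.47 to 0.14 for Xrcc1 and -0.33 to 0.40 for Tet1. For d4c7 against females they ranged from -0.72 to 0.30 for Mbd4, -0.48 to 0.33 for Apex1 and -0.34 to 0.27 for Xrcc1. The cause of these changes was not tested.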
